A study of Mus musculus with 22 samples.

Results

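The genes described here are 26 genes of cholesterol synthesis and its control by SREBP2, taken from a table of mRNA-seq reads counted on 55573 genes in 22 mouse livers by matching each gene symbol. They comprise 20 enzymes (Ggps1, on the branch to geranylgeranyl diphosphate, and those that lead from acetyl-CoA to cholesterol), 4 genes of the SREBP2 machinery and 2 genes of sterol transport and uptake. All 26 passed the minimum mean count of 10 reads over all libraries, as did 14062 genes of the whole table. The lowest count of any of them in any library was 64 reads.

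Per the labels, each library came from the liver of 1 C57BL/6 mouse, whose sex they do not give. Cre mice (wild-type Flcn, Albumin-Cre+/-) were compared with liver-Flcn-/- mice (Flcn f/f, Albumin-Cre+/-), so both genotypes carried the recombinase, and Albumin-Cre acts in hepatocytes and can also recombine in bile duct cells, which share their precursor, but is not known to act in blood, endothelial or stellate cells. Chow was fed to 6 Cre mice and to 5 of the knockouts, and 5 Cre mice and 6 knockouts received the MCD diet, which contains fat and sucrose and lacks methionine and choline. MCD feeding began at 6 weeks of age and lasted 6 weeks, and mice were 3 months old at collection. A library held between 13751347 and 21144388 counted reads. The unit of a level is CPM, a gene's count relative to its library's total after TMM scaling, and differences are log2 fold changes ± standard error from 1 edgeR quasi-likelihood fit of the 4 groups, with p adjusted by the Benjamini-Hochberg method over the 14062 genes and a threshold of 0.05.

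Cholesterol is built from acetyl-CoA through mevalonate, isoprene units, farnesyl diphosphate, squalene and lanosterol, and most of these enzymes sit in the endoplasmic reticulum. SREBP2 is the transcription factor that raises them: when membrane sterol is low, SCAP escorts it to the Golgi for cleavage, and when sterol is high, the INSIG proteins hold SCAP and SREBP2 back. The liver is a main site of this synthesis, and it also turns cholesterol into bile acids and exports it in lipoproteins.

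A promoter entry in RefSeq (GRCm38.p6, 250 bases before to 50 after the start) was found for 22 of the 26 genes. Fdps, Fdft1, Sqle and Stard4 had none and were not searched. Among the 22, Hmgcs1 was the only gene with a match to the sterol regulatory element core TCACNCCAC on either strand (4.55% of these genes against 1.44% of 27025 genes). CCAAT, the box bound by NF-Y, which is known to act with SREBPs, was present on either strand in 20 of the 22 (90.9% against 41.1%). CACGTG was found in 5 of them, Hsd17b7, Insig1, Dhcr7, Sc5d and Scap (22.7% against 8.09%), and TCACGTGA, which contains CACGTG, in 0 (against 1.12%). A match describes the letters of this window and is not a binding site shown by these data. The 200 bases before the start are printed for Hmgcs1, because it holds the core, and for the 4 other genes with the largest significant fold change that have a single promoter entry and a CCAAT box in the printed window, which leaves out Dhcr7 with its 3 entries. These genes were chosen after their values were seen. Capitals mark the core in Hmgcs1 and each CCAAT or its reverse complement, and every line reads 5′ to 3′ on the strand of the gene.
Hmgcs1, chr13:119690151-119690350 (plus strand): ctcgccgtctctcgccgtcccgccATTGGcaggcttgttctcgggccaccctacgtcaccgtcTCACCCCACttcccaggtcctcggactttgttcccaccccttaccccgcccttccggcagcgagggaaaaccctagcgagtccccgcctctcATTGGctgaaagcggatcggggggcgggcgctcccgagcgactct
Tm7sf2, chr19:6067851-6068050 (minus strand): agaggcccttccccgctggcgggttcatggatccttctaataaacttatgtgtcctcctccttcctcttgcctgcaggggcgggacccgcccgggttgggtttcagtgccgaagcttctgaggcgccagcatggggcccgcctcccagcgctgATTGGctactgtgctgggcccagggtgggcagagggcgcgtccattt
Idi1, chr13:8885406-8885605 (plus strand): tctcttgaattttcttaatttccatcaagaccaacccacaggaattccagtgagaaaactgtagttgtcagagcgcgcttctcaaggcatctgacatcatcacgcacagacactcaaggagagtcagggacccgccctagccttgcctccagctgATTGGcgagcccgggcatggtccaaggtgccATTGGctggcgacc
Nsdhl, chrX:72918321-72918520 (plus strand): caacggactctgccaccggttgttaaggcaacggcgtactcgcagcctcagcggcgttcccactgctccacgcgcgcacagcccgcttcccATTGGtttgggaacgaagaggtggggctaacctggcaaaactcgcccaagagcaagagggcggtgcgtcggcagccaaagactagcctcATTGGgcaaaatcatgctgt
Sc5d, chr9:42264301-42264500 (minus strand): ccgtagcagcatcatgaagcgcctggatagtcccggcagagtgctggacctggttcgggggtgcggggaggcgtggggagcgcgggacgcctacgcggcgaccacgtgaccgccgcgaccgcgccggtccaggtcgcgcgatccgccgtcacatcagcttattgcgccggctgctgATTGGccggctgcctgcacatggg

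Hmgcs1, Idi1 and Nsdhl each hold 2 CCAAT boxes in the printed stretch, and Tm7sf2 and Sc5d hold 1. In Hmgcs1 the sterol regulatory core lies between the CCAAT boxes.

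Flcn itself was measured first. In Cre mice on chow it had a lowest, median and highest level of 26.1, 31.8 and 40.2 CPM, and in liver-Flcn-/- mice on chow 24.2, 19.96, 16.7, 19.4 and 21.8 CPM. All 5 knockout livers on chow lay below all 6 Cre livers (log2 fold change -0.63 ± 0.173, edgeR adjusted p = 0.0249; exact permutation test on log2 CPM, two-sided, p = 0.00433, the smallest that 6 against 5 mice allow). On MCD the levels were 31.7, 18.2, 39.9, 32.5 and 23.6 CPM in Cre mice and had a lowest, median and highest of 17.6, 26.6 and 32.6 CPM in liver-Flcn-/- mice. These groups overlapped, and the difference did not pass the test (log2 fold change -0.16 ± 0.170, edgeR adjusted p = 0.567). The deletion removes part of the gene while reads on all its exons are counted, and liver cells in which Albumin-Cre is not active keep Flcn, so the count is a weak check of the labels, and on MCD it did not separate the genotypes.

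Several livers stood apart before any comparison. Skeletal muscle markers (6 genes, Acta1 the most abundant) summed to 1758 CPM in Cre MCD mouse 3, to 88.9 CPM in Cre MCD mouse 4 and to 40.4 CPM in liver-Flcn-/- MCD mouse 3, and to at most 11.9 CPM in the other 19 livers. By Xist, 12 libraries had reads above 100 CPM and 10 were near 0. The 5 chow livers with Xist near 0 were the same 5 that the study's quality sheet lists with a lower share of uniquely mapped reads (Cre mice 1, 5 and 6 and liver-Flcn-/- mice 1 and 3), so sex and this share cannot be told apart on chow. Cre MCD mouse 1 and liver-Flcn-/- chow mouse 2 had the highest summed levels of 4 Y-linked genes among the livers with Xist (27.8 and 26.8 CPM). Whether these 2 libraries hold RNA of more than 1 mouse was not tested. Their part in the results was not tested beyond the counts without these livers given below.

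On chow the 26 genes spanned a wide range of levels, compared here per kilobase of annotated exon. In Cre mice the desaturase gene Sc5d was the highest at 258 ± 57.1 CPM per kb (SD, n = 6), ahead of Hmgcs1 at 185 ± 55.7, Insig1 at 172 ± 55.2 and the isomerase gene Ebp at 152 ± 22.7 CPM per kb, and each of these differed from the next by less than 2 SD. The lowest levels were those of Lbr at 2.70 ± 0.299, Mylip at 2.67 ± 0.393 and Ggps1 at 2.18 ± 0.245 CPM per kb, of which Lbr and Mylip differed by less than their SD. On the MCD diet Cre mice had Hmgcs1 first (74.9 ± 33.2 CPM per kb, n = 5), followed by Sc5d (68.6 ± 14.1) within its SD. Tm7sf2 moved from the 12th to the 22nd place in this order.

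The MCD diet lowered most of the pathway in both genotypes. In Cre mice 21 of the 26 genes fell, 1 rose (Mylip) and 4 did not pass the test (Mvk, Ggps1, Lss and Hsd17b7). Across all genes tested 28.2% fell and 29.3% rose in the same comparison. The median log2 fold change of the 26 genes was -1.15, against 0.01 for all genes. For 15 of the 26 genes every MCD liver lay below every chow liver, where 16.9% of all genes did so, and Mylip lay above without overlap (15.6% of all genes). In liver-Flcn-/- mice 23 genes fell, 0 rose and 3 did not pass (Fdps, Ggps1 and Mylip), with 22.5% of all genes lower and 22.5% higher. The median was -1.23 against 0.00435 for all genes, and 19 genes were lower and 0 higher without overlap, against 14.8% and 14.4% of all genes. Without Cre MCD mouse 3 the count of lower genes was 20 in Cre mice, and without the 5 chow livers of lower mapping share it was 21 for Cre and 22 for liver-Flcn-/- mice. With only the 10 Xist-low livers it was 17 and 16, beside 2109 and 1608 of all 14062 genes. Lost in these fits were Fdft1, Sqle and Srebf2 in either genotype and Lbr in Cre mice. Mvk, Mvd, Lss and Hsd17b7 were lost in liver-Flcn-/- mice.

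**Figure D1:**
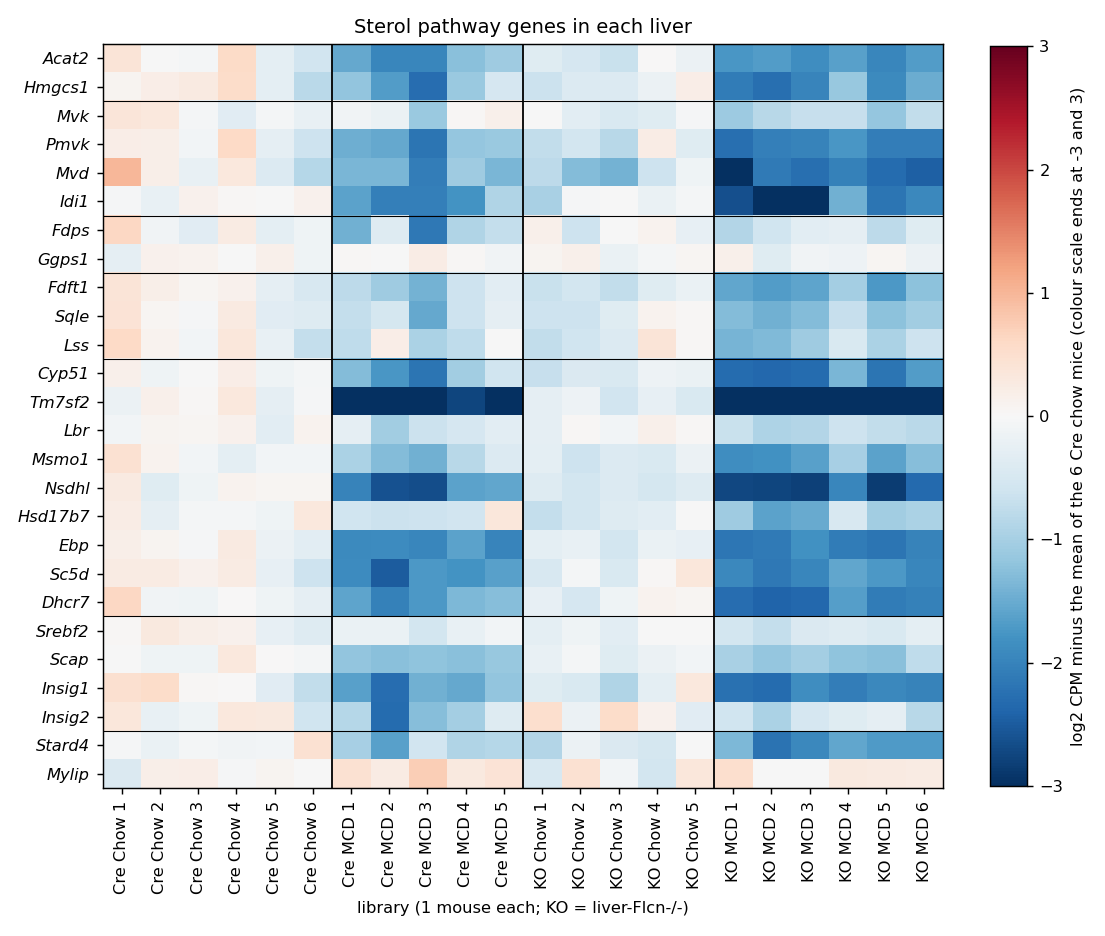
Log2 CPM of the 26 genes (rows, in pathway order) in each of the 22 livers (columns), as the difference from the mean of the 6 Cre chow livers. Blue marks lower levels; the MCD columns are blue for most rows in both genotypes, Tm7sf2 is the darkest row, and Ggps1, Srebf2 and Mylip stay pale.

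Hepatocyte markers moved with the diet as well. The summed level of 7 hepatocyte markers (Alb the most abundant, none at 0) was 129512 CPM in Cre mice on chow and 91657 CPM on MCD, and 110479 and 74631 CPM in liver-Flcn-/- mice, with 4 of 7 markers lower and 1 higher on MCD in Cre mice and 5 lower and 0 higher in liver-Flcn-/- mice. Neutrophil markers (4 genes, S100a9 the most abundant) rose from a sum of 3.46 to 26.4 CPM in Cre mice and from 4.02 to 14.9 CPM in liver-Flcn-/- mice, and stellate cell and fibroblast markers (7 genes, Reln the most abundant) went from 115 to 241 CPM and from 153 to 127 CPM. Cholangiocyte markers (5 genes, Spp1 the most abundant) went from 64.1 to 141 CPM in Cre mice, without overlap of the diets and with 3 of 5 higher, and from 124 to 119 CPM in liver-Flcn-/- mice, with 0 passing. Macrophage markers (7 genes, Clec4f the most abundant) went from 336 to 442 CPM in Cre mice (3 higher and 2 lower) and from 429 to 339 CPM in liver-Flcn-/- mice (0 higher and 4 lower), and endothelial markers (5 genes, Stab2 the most abundant) from 159 to 131 CPM (1 higher and 2 lower) and from 197 to 158 CPM (0 higher and 3 lower). Lymphocyte markers (5 genes, 4 of them tested, Cd79a the most abundant) went from 3.15 to 3.49 CPM in Cre mice, with 0 passing, and from 5.90 to 3.21 CPM in liver-Flcn-/- mice, without overlap of the diets and with 3 lower. Skeletal muscle markers went from 1.91 to 372 CPM in Cre mice, with 6 of 6 higher and Cre MCD mouse 3 holding most of the MCD sum. In liver-Flcn-/- mice they went from 2.55 to 7.64 CPM, with 0 passing. The 4 adipocyte markers were too low to be tested. In whole liver, fewer cells of a type and less RNA per cell cannot be told apart, and the part these shifts play in the results was not tested.

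At the entry to the pathway both genes fell. Hmgcs1 (chr13:119690379-119708260, plus strand, GRCm38), the cytosolic HMG-CoA synthase, had a lowest, median and highest level of 460.5, 896 and 1193 CPM in Cre mice on chow, and 355, 252, 166, 375 and 572 CPM in Cre MCD mice 1 to 5. Its levels in liver-Flcn-/- mice were 519.6, 613, 612, 716 and 937 CPM on chow and had a lowest, median and highest of 170.0, 211 and 367 CPM on MCD. In Cre mice only MCD mouse 5 reached into the chow range, above the lowest chow liver, and in liver-Flcn-/- mice the diets did not overlap. The gene was 2.47-fold lower on MCD in Cre mice (log2 fold change -1.30 ± 0.278, edgeR adjusted p = 4.33e-04) and 2.83-fold lower in liver-Flcn-/- mice (-1.50 ± 0.272, adjusted p = 1.27e-04). Acat2, which joins acetyl-CoA units in the cytosol, went from 110.5 ± 32.5 to 37.5 ± 10.4 CPM in Cre mice (SD, n = 6 and 5) and from 85.2 ± 16.3 to 31.6 ± 2.69 CPM in liver-Flcn-/- mice (n = 5 and 6), with log2 fold changes of -1.56 and -1.43 that both passed the test.

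From mevalonate to isoprene units, 3 of 4 genes fell in Cre mice and 4 of 4 in liver-Flcn-/- mice. Idi1, the isomerase that makes dimethylallyl diphosphate, had a lowest, median and highest of 27.3, 32.4 and 34.8 CPM in Cre mice on chow and levels of 10.5, 7.71, 7.78, 9.27 and 17.1 CPM on MCD. Liver-Flcn-/- mice had 16.4, 31.4, 32.0, 27.8 and 30.8 CPM on chow and a lowest, median and highest of 2.75, 6.05 and 11.8 CPM on MCD. The diets did not overlap in either genotype, and the single low chow value, that of liver-Flcn-/- mouse 1, still lay above every MCD liver of its genotype. The log2 fold change was -1.62 ± 0.280 in Cre mice (edgeR adjusted p = 4.70e-05) and -2.09 ± 0.277 in liver-Flcn-/- mice (adjusted p = 3.47e-06). Pmvk, the phosphomevalonate kinase, fell by 1.50 and 1.63 on the log2 scale in Cre and liver-Flcn-/- mice, and Mvd, the decarboxylase that follows it, by 1.54 and 1.58.

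Mevalonate kinase, Mvk, stands before them in the pathway and gave smaller values. Its lowest, median and highest levels were 23.8, 28.8 and 38.4 CPM in Cre mice on chow, and Cre MCD mice had 27.8, 26.1, 13.8, 30.9 and 33.2 CPM. In liver-Flcn-/- mice the levels were 29.8, 24.1, 22.0, 23.5 and 29.3 CPM on chow, with a lowest, median and highest of 13.4, 17.4 and 18.5 CPM on MCD. The diets overlapped in Cre mice, where the estimate did not pass (-0.21 ± 0.174, edgeR adjusted p = 0.315), and did not overlap in liver-Flcn-/- mice (-0.64 ± 0.174, adjusted p = 0.00494). The difference between the genotypes in this response did not pass the test itself (-0.43 ± 0.246, edgeR adjusted p = 0.300).

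**Figure D2:**
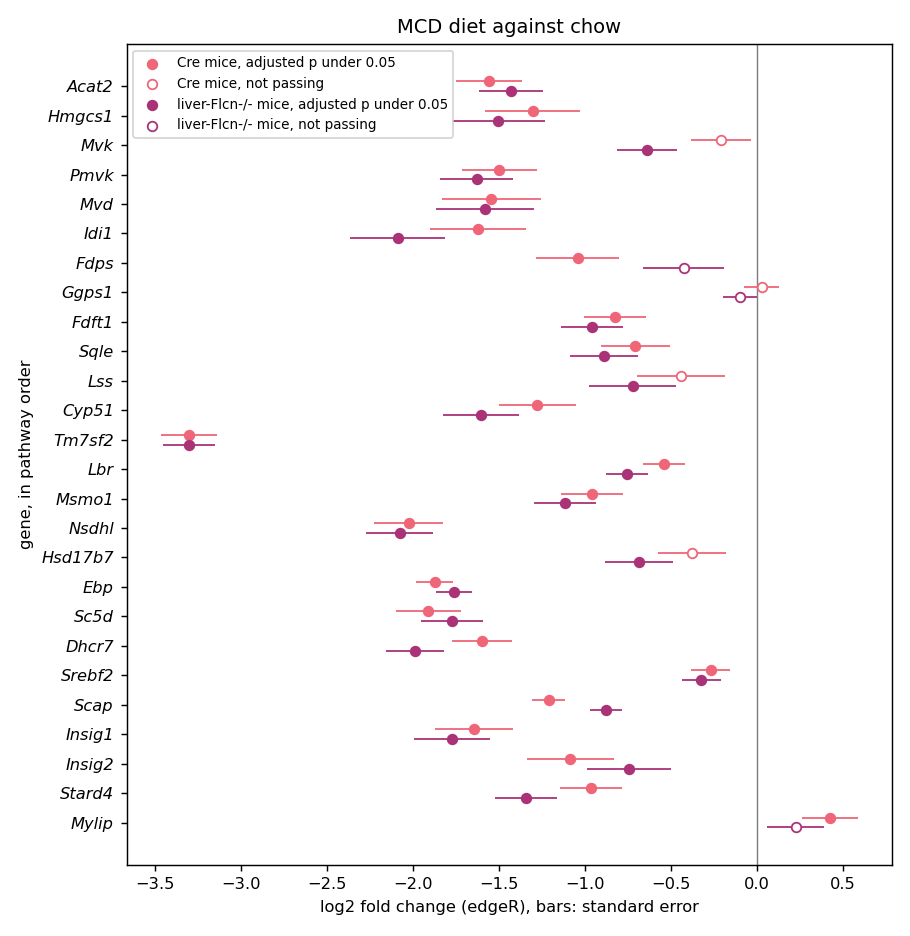
Log2 fold change of MCD against chow (edgeR, x axis, bars are standard errors) for the 26 genes in pathway order, in Cre and liver-Flcn-/- mice. Filled points passed an adjusted p of 0.05; Tm7sf2 lies at -3.30 in both genotypes, and Ggps1 and Mylip are the genes whose points reach or pass 0.

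Among the enzyme stages, the prenyl chain genes had the smallest median log2 fold change, -0.51 in Cre and -0.26 in liver-Flcn-/- mice. Fdps, the farnesyl diphosphate synthase at the branch to sterols, had a lowest, median and highest of 104, 122 and 202 CPM in Cre mice on chow and levels of 48.3, 101, 29.6, 70.3 and 79.8 CPM on MCD. Liver-Flcn-/- mice had 147, 85.0, 132, 143 and 112 CPM on chow and a lowest, median and highest of 71.2, 94.6 and 110.1 CPM on MCD. The highest MCD liver of the Cre mice came close to the lowest chow liver without reaching it, whereas the diets overlapped in liver-Flcn-/- mice. Fdps fell in Cre mice (-1.04 ± 0.242, edgeR adjusted p = 9.39e-04) and did not pass in liver-Flcn-/- mice (-0.42 ± 0.236, adjusted p = 0.1501). With only the 2 groups compared in the fit, Fdps passed in liver-Flcn-/- mice too (edgeR adjusted p = 0.0361). A difference between these responses did not pass (0.62 ± 0.336, adjusted p = 0.269). Ggps1, which makes geranylgeranyl diphosphate for protein prenylation, had means between 9.64 and 10.5 CPM over the 4 groups. Its log2 fold changes of 0.03 and -0.09 did not pass. With libraries scaled to their totals alone it was called higher in Cre mice (0.45, edgeR adjusted p = 0.00117), where the median of all genes was 0.43. Its exons share 257 bases (5.44%) with Arid4b on the opposite strand, a gene with more reads.

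From squalene to lanosterol the changes were moderate. Fdft1, the squalene synthase, had a lowest, median and highest of 137, 205 and 249 CPM in Cre mice on chow and 110.2, 91.0, 72.2, 125 and 153 CPM on MCD, and the highest MCD liver, mouse 5, overlapped the chow livers. In liver-Flcn-/- mice it had 120.2, 130.4, 116, 149 and 168 CPM on chow and a lowest, median and highest of 57.7, 64.7 and 94.0 CPM on MCD, without overlap. Its log2 fold changes were -0.82 ± 0.182 (edgeR adjusted p = 5.92e-04) and -0.96 ± 0.179 (adjusted p = 1.79e-04). Exons of Fdft1 share 774 bases (18.3% of its exon bases) with Ctsb on the opposite strand, a gene with far more reads, and the strand setting of the counting is not given in the sources used here. Sqle, the squalene epoxidase, fell by 0.71 and 0.89 on the log2 scale, of which the call in Cre mice was lost with libraries scaled to their totals alone (-0.29, edgeR adjusted p = 0.209). Lss, the lanosterol synthase, had -0.44 ± 0.256 in Cre mice, which did not pass, and -0.72 ± 0.255 in liver-Flcn-/- mice (edgeR adjusted p = 0.0251). Without Cre MCD mouse 2, Lss passed in Cre mice as well (-0.63, edgeR adjusted p = 0.0463). The Lss call in liver-Flcn-/- mice was lost without chow mouse 4, without chow mouse 5, without MCD mouse 1 or without MCD mouse 2 (edgeR adjusted p up to 0.105), and in 3 of the 12 other alternatives (up to 0.444).

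In the last stage, from lanosterol to cholesterol, 8 of 9 genes fell in Cre mice and 9 of 9 in liver-Flcn-/- mice. The stage medians of -1.60 and -1.76 lay close to those from mevalonate to isoprene units (-1.52 and -1.61). Tm7sf2 (chr19:6062821-6068373, minus strand, GRCm38), a sterol reductase of the endoplasmic reticulum that acts after the lanosterol demethylase, had a lowest, median and highest of 143, 171 and 213 CPM in Cre mice on chow, and 18.9, 11.9, 13.5, 25.3 and 18.3 CPM on MCD. Its levels in liver-Flcn-/- mice were 143, 154, 116, 146 and 125 CPM on chow, with a lowest, median and highest of 12.0, 13.96 and 15.4 CPM on MCD. Every MCD liver of either genotype was far below every chow liver. The gene was 9.86-fold lower in Cre mice (-3.30 ± 0.162, edgeR adjusted p = 4.78e-12) and 9.87-fold lower in liver-Flcn-/- mice (-3.30 ± 0.154, adjusted p = 3.05e-12), the largest change among the 26 genes in both. Its exons share 532 bases (12.1%) with Vps51 on the same strand.

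Lbr (chr1:181815335-181843046, minus strand), the lamin B receptor of the inner nuclear membrane, carries the same reductase activity and changed far less. It had a lowest, median and highest of 10.3, 13.4 and 14.00 CPM in Cre mice on chow and 10.7, 6.16, 8.20, 9.02 and 10.2 CPM on MCD. In liver-Flcn-/- mice the levels were 10.5, 13.01, 12.1, 14.2 and 13.1 CPM on chow, with a lowest, median and highest of 6.67, 7.44 and 8.28 CPM on MCD. The diets overlapped in Cre mice and did not in liver-Flcn-/- mice, with log2 fold changes of -0.54 ± 0.122 and -0.75 ± 0.121 that both passed (edgeR adjusted p = 7.75e-04 and 3.47e-05). In Cre mice Lbr no longer passed with libraries scaled to their totals alone (-0.12, edgeR adjusted p = 0.379) or with only the Xist-low livers. Per kilobase of exon, Tm7sf2 had 39.4 ± 5.78 and Lbr 2.70 ± 0.299 CPM per kb in Cre mice on chow, and 4.00 ± 1.20 and 1.86 ± 0.375 CPM per kb on MCD.

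Cyp51, the demethylase that opens this stage, had a lowest, median and highest of 318, 339.7 and 398 CPM in Cre mice on chow and 142, 104, 76.5, 169 and 232 CPM on MCD. Liver-Flcn-/- mice had 215, 260.4, 254, 313 and 306 CPM on chow and a lowest, median and highest of 68.6, 74.0 and 135 CPM on MCD. The diets did not overlap in either genotype, and the log2 fold changes were -1.28 ± 0.224 and -1.60 ± 0.220. Of the genes for removal of the remaining methyl groups, Nsdhl, a sterol dehydrogenase, had a lowest, median and highest of 126, 167 and 194 CPM in Cre mice on chow and 39.98, 26.1, 25.4, 52.9 and 54.6 CPM on MCD. It had 122, 109, 121, 111 and 123 CPM in liver-Flcn-/- mice on chow and a lowest, median and highest of 22.5, 23.9 and 41.6 CPM on MCD. All MCD livers lay below all chow livers, with 4.07-fold and 4.22-fold lower levels (edgeR adjusted p = 3.62e-08 and 3.60e-08). Its partners in the same reactions changed less: the methyl oxidase gene Msmo1 fell by 0.96 and 1.12 on the log2 scale. The ketoreductase gene Hsd17b7 had -0.38 ± 0.198 in Cre mice, which did not pass, and -0.68 ± 0.197 in liver-Flcn-/- mice (edgeR adjusted p = 0.00738). Without Cre MCD mouse 5, which stood far above the other Cre MCD livers, Hsd17b7 passed in Cre mice as well (-0.61, edgeR adjusted p = 0.00586).

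The enzymes that finish the sterol nucleus fell together. Ebp, the isomerase, went from 352 ± 52.5 to 96.1 ± 10.7 CPM in Cre mice (SD, n = 6 and 5; -1.87 ± 0.110) and from 283 ± 25.2 to 83.5 ± 8.78 CPM in liver-Flcn-/- mice (n = 5 and 6; -1.76 ± 0.106). Sc5d, the desaturase, went from 1254 ± 278 to 334 ± 68.4 CPM (-1.91 ± 0.188) and from 1149.9 ± 279.7 to 336 ± 48.0 CPM (-1.77 ± 0.180). Dhcr7, the reductase of the last step, went from 163 ± 41.7 to 53.8 ± 10.9 CPM (-1.60 ± 0.175) and from 146 ± 24.2 to 36.9 ± 7.60 CPM (-1.99 ± 0.171). All 3 passed the test in both genotypes, and none of the 3 had an MCD liver within the chow range of its genotype.

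**Figure D3:**
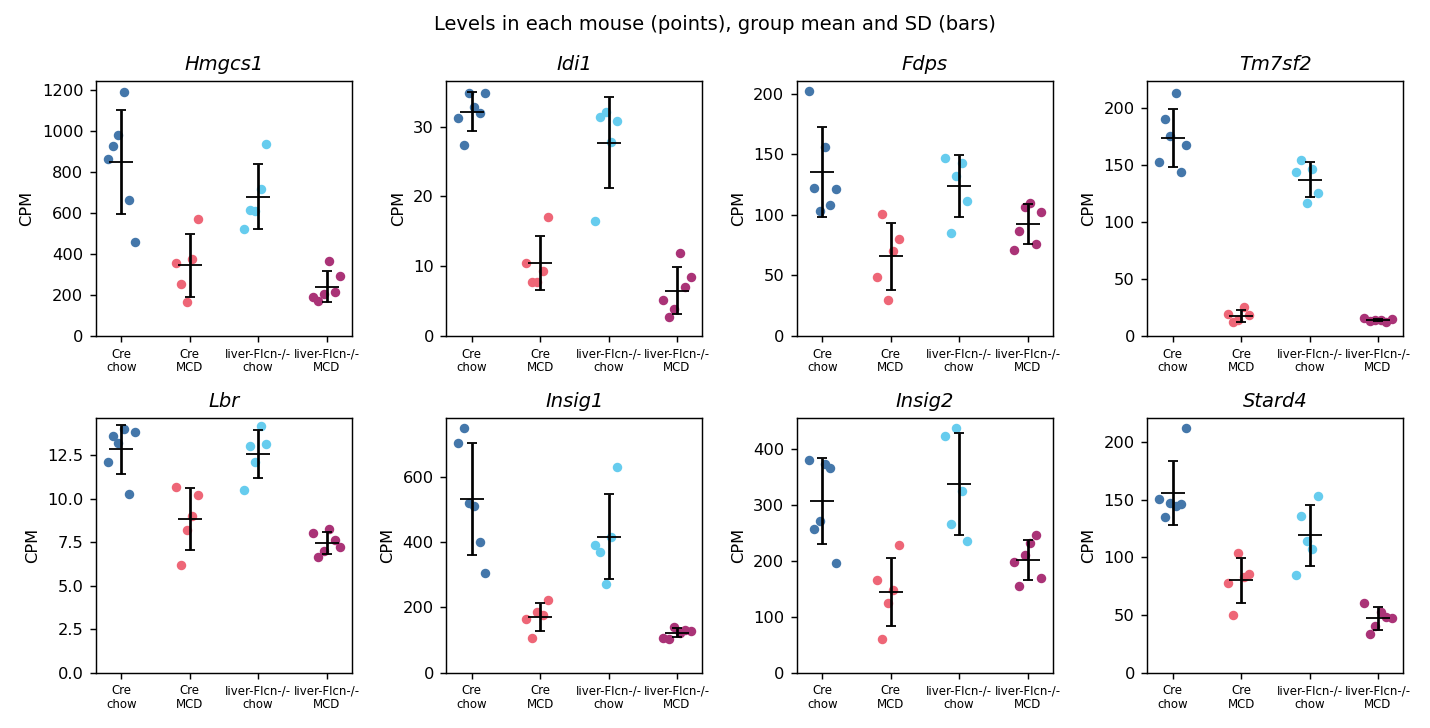
CPM of 8 of the genes in each liver (points), with the group mean and SD (bars), on linear axes that start at 0. The Tm7sf2 points on MCD lie between 11.9 and 25.3 CPM against 116 to 213 CPM on chow, while Lbr, Insig2 and Fdps show smaller gaps or overlapping groups.

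Among the SREBP2 machinery, the transcription factor gene itself changed least. Srebf2 had a lowest, median and highest of 52.3, 73.1 and 84.6 CPM in Cre mice on chow and 59.7, 59.7, 47.0, 58.7 and 64.8 CPM on MCD, and in liver-Flcn-/- mice 56.3, 63.2, 54.9, 68.0 and 68.0 CPM on chow and a lowest, median and highest of 41.7, 50.4 and 55.9 CPM on MCD. The diets overlapped in both genotypes. The fall passed the threshold narrowly in Cre mice (-0.27 ± 0.113, edgeR adjusted p = 0.0478), where the estimate turned to 0.15 when libraries were scaled to their totals alone, and passed in liver-Flcn-/- mice (-0.32 ± 0.113, adjusted p = 0.0245). In Cre mice the call was lost in 15 of the 22 fits that left out 1 liver and not kept in 9 of the 12 other alternatives. Over all 12 of these the edgeR, limma-voom or DESeq2 adjusted p ran from 0.00145 to 0.465. The call in liver-Flcn-/- mice was lost without chow mouse 4, without chow mouse 5 or without MCD mouse 2, and in 4 of the 12 other alternatives, in which the estimate came to -0.06 with libraries scaled to their totals alone (edgeR adjusted p = 0.683). Scap, the escort, went from 181 ± 22.5 to 78.1 ± 2.77 CPM in Cre mice (SD, n = 6 and 5; -1.21 ± 0.0954, edgeR adjusted p = 1.45e-09) and from 159 ± 13.9 to 86.8 ± 11.5 CPM in liver-Flcn-/- mice (n = 5 and 6; -0.88 ± 0.0928, adjusted p = 1.89e-07), without overlap of the diets in either.

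The 2 INSIG genes, whose proteins retain SCAP, both fell. Insig1, itself a target of SREBPs, had a lowest, median and highest of 304, 515 and 748 CPM in Cre mice on chow and 163, 104, 186, 175 and 222 CPM on MCD. Liver-Flcn-/- mice had 392, 369.9, 272, 416 and 628 CPM on chow and a lowest, median and highest of 103, 124 and 139 CPM on MCD. No MCD liver reached the chow range of its genotype (-1.64 ± 0.227 and -1.77 ± 0.221, edgeR adjusted p = 3.20e-06 and 1.52e-06). Insig2, of which the liver makes a transcript known to be lowered by insulin, had a lowest, median and highest of 196, 318 and 381 CPM in Cre mice on chow and 165, 60.2, 124, 147 and 228 CPM on MCD. In liver-Flcn-/- mice it had 423, 266, 437, 324 and 236 CPM on chow and a lowest, median and highest of 156, 204 and 246 CPM on MCD. The diets overlapped in both genotypes, and the log2 fold changes were -1.08 ± 0.252 (edgeR adjusted p = 9.65e-04) and -0.74 ± 0.246 (adjusted p = 0.0177). The Insig2 call in liver-Flcn-/- mice was lost without chow mouse 3 (edgeR adjusted p = 0.0551), and also with libraries scaled to their totals alone, without the 5 chow livers of lower mapping share and with only the Xist-high livers (adjusted p up to 0.371).

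Of the 2 genes of transport and uptake, Stard4, a carrier of cholesterol between membranes, fell and Mylip did not. Stard4 had a lowest, median and highest of 135, 147 and 212 CPM in Cre mice on chow and 77.6, 49.6, 104, 82.9 and 85.8 CPM on MCD. It had 84.4, 136, 114, 108 and 153 CPM in liver-Flcn-/- mice on chow and a lowest, median and highest of 33.1, 47.7 and 60.7 CPM on MCD. The diets did not overlap in either genotype (-0.96 ± 0.181 and -1.34 ± 0.178, edgeR adjusted p = 1.16e-04 and 3.54e-06). Mylip, a ubiquitin ligase that LXR induces and that marks lipoprotein receptors for degradation, had a lowest, median and highest of 6.32, 8.79 and 9.88 CPM in Cre mice on chow and 11.7, 10.1, 14.2, 10.5 and 11.4 CPM on MCD. All 5 MCD livers lay above all 6 chow livers, by a narrow margin (0.42 ± 0.163, edgeR adjusted p = 0.0305). Without Cre MCD mouse 1, without Cre MCD mouse 3 or without Cre chow mouse 1 it no longer passed. In liver-Flcn-/- mice its levels were 6.15, 11.6, 8.13, 5.85 and 10.8 CPM on chow and had a lowest, median and highest of 8.43, 10.2 and 12.2 CPM on MCD, which overlapped and did not pass (0.23 ± 0.164, adjusted p = 0.275).

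The livers of a group differed in the 20 enzymes, Ggps1 included, as a block. The mean log2 difference of the 20 enzymes from the Cre chow mean was -1.25 ± 0.33 in Cre MCD mice (SD, n = 5; -1.70 to -0.84), -1.66 ± 0.23 in liver-Flcn-/- MCD mice (n = 6; -1.88 to -1.28) and -0.31 ± 0.18 in liver-Flcn-/- chow mice (n = 5; -0.45 to -0.09), with an SD of 0.21 among the 6 Cre chow mice. Cre MCD mouse 5 had the highest level of its group for 13 of the 20 enzymes, and Cre MCD mouse 3, the liver with the muscle markers, had the lowest for 12. Liver-Flcn-/- MCD mouse 4 was the highest of its group for 17 enzymes, and on chow Cre mouse 1 was the highest for 9 and Cre mouse 6 the lowest for 10. The values of 1 liver are not independent between enzymes, since they share the mouse and the library.

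**Figure D4:**
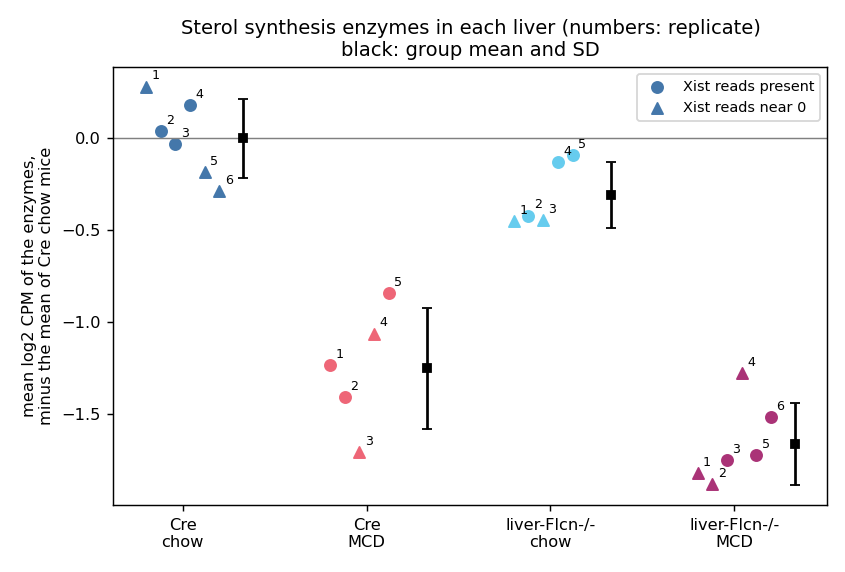
Mean log2 CPM of the 20 enzymes in each liver, as the difference from the mean of the Cre chow mice (y axis), by group, with the replicate number beside each point; black squares and bars give the group mean and SD. Circles are livers with Xist reads and triangles those near 0; the MCD groups overlap through Cre MCD mouse 3 at -1.70 and liver-Flcn-/- MCD mouse 4 at -1.28.

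Loss of Flcn was then compared with Cre mice on each diet. On chow 0 of the 26 genes passed the edgeR test, with 3.1% of all genes lower and 5.52% higher. An unadjusted p under 0.05 was found for 8 genes, a count for which the share of all genes is not given here. By limma-voom 0 genes were called, beside 388 of all 14062 genes lower. DESeq2 called 3 lower (Ebp, Fdft1 and Mvd), beside 596 of the 14013 genes it tested. The estimates were negative for 24 of the 26 genes, with a median of -0.30 against -0.03 for all genes. Mvd had the lowest adjusted p, with levels of 26.5, 18.7, 17.2, 29.7 and 42.0 CPM in liver-Flcn-/- mice and a lowest, median and highest of 25.3, 45.1 and 91.0 CPM in Cre mice, which overlapped (-0.89 ± 0.282, edgeR adjusted p = 0.0529). For Cyp51 and Nsdhl, whose levels are given above, all 5 liver-Flcn-/- livers lay below all 6 Cre livers, where 2.93% of all genes did so and 4.01% lay above, although neither passed the test (-0.38 ± 0.219 and -0.46 ± 0.190, edgeR adjusted p = 0.313 and 0.135). The estimates of Ggps1, Lbr and Mylip were within 0.03 of 0. Beside these values, summed hepatocyte markers were 129512 CPM in Cre and 110479 CPM in liver-Flcn-/- chow mice (3 of 7 lower and 1 higher), cholangiocyte markers 64.1 and 124 CPM (1 of 5 higher), macrophage markers 336 and 429 CPM (1 of 7 higher) and endothelial markers 159 and 197 CPM (1 of 5 higher). Their part in these estimates was not tested.

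On the MCD diet 8 of the 26 genes were lower in liver-Flcn-/- mice and 0 were higher, where 8.53% of all genes were lower and 8.06% higher. The 8 were Mvk, Mvd, Fdft1, Cyp51, Msmo1, Hsd17b7, Dhcr7 and Stard4. By stage, 2 of 4 genes from mevalonate to isoprene units, 1 of 3 from squalene to lanosterol and 4 of 9 from lanosterol to cholesterol were lower, and 0 of the 2 entry genes, 0 of the 2 prenyl chain genes and 0 of the 4 genes of the SREBP2 machinery passed. The median of the 26 genes was -0.50 against -0.01 for all genes, and 22 estimates were negative. For 0 of the 26 genes did the groups not overlap, against 3.53% of all genes lower and 5.08% higher without overlap. This comparison shares its Cre MCD mice and its liver-Flcn-/- MCD mice with the 2 diet comparisons above.

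Stard4 had the lowest adjusted p among them. Its levels were 77.6, 49.6, 104, 82.9 and 85.8 CPM in Cre MCD mice and had a lowest, median and highest of 33.1, 47.7 and 60.7 CPM in liver-Flcn-/- MCD mice. Only Cre MCD mouse 2 lay within the liver-Flcn-/- range (-0.77 ± 0.178, 1.70-fold lower, edgeR adjusted p = 0.00488). Mvk came next (-0.67 ± 0.174, adjusted p = 0.0101): Cre MCD mouse 3 had 13.8 CPM, and the other 4 Cre livers lay above the highest liver-Flcn-/- liver at 18.5 CPM. Mvd had 17.5, 17.7, 10.8, 21.6 and 17.6 CPM in Cre mice and a lowest, median and highest of 4.98, 9.35 and 11.2 CPM in liver-Flcn-/- mice. Here too, mouse 3 alone of the Cre livers fell within the liver-Flcn-/- range, and the estimate was the largest of the 26 genes (-0.93 ± 0.284, 1.90-fold lower, edgeR adjusted p = 0.0279).

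The other 5 genes of the 8 also overlapped. Hsd17b7 had 41.1, 39.3, 40.5, 41.5 and 78.2 CPM in Cre mice, of which mouse 5 stood far above the rest, and a lowest, median and highest of 20.3, 29.8 and 44.8 CPM in liver-Flcn-/- mice, of which mouse 4 alone reached the Cre range (-0.69 ± 0.197, edgeR adjusted p = 0.0180). Fdft1 (-0.65 ± 0.179, adjusted p = 0.0150), Cyp51 (-0.71 ± 0.218, 0.0293), Msmo1 (-0.56 ± 0.177, 0.0333) and Dhcr7 (-0.55 ± 0.168, 0.0294) were lower by the edgeR test. Tm7sf2, the gene with the largest diet response, had -0.34 ± 0.147 and did not pass (adjusted p = 0.118). Positive estimates were those of Fdps (0.49 ± 0.239), Insig2 (0.48 ± 0.249), Scap (0.15 ± 0.0932) and Sc5d (0.01 ± 0.178), none of which passed.

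**Figure D5:**
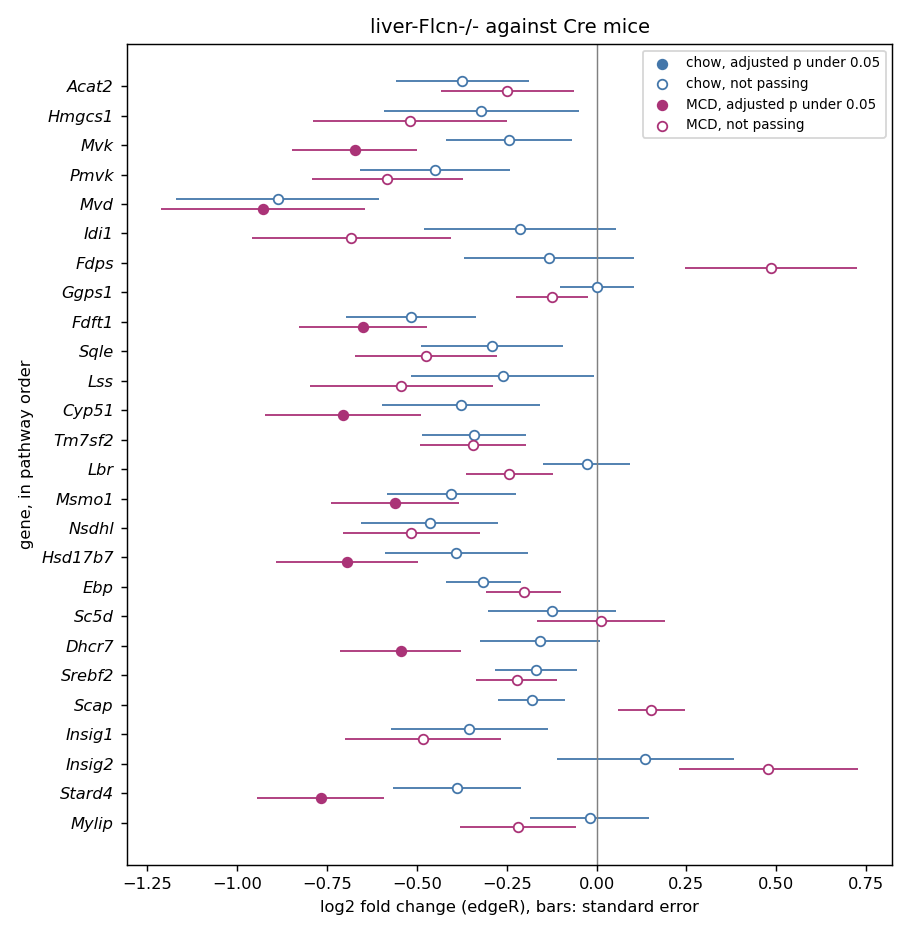
Log2 fold change of liver-Flcn-/- against Cre mice (edgeR, x axis, bars are standard errors) for the 26 genes in pathway order, on chow and on MCD. Filled points passed an adjusted p of 0.05: 8 genes on MCD and 0 on chow, with most points left of 0 on both diets.

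The count on MCD depended on single livers. It was 3 without Cre MCD mouse 5, and 5 without liver-Flcn-/- MCD mouse 2 or 3. It was 4 without Cre MCD mouse 1, without Cre MCD mouse 4 or without liver-Flcn-/- MCD mouse 1. Without Cre MCD mouse 3 it was 11, and so it was without Cre MCD mouse 2. Of all 14062 genes, 1199 were lower with every liver kept and 1220 without Cre MCD mouse 5. Without liver-Flcn-/- MCD mouse 2 or 3 there were 1172 and 922 lower genes. Without Cre MCD mouse 1 or 4 or liver-Flcn-/- MCD mouse 1 there were 894, 887 and 1057. Without Cre MCD mouse 3 or 2 there were 1168 and 1241. Mvk and Stard4 passed in all 22 fits that left out 1 liver. Over these fits Cyp51 and Msmo1 were each lost in 7, Dhcr7 in 6, Mvd in 4, and Fdft1 and Hsd17b7 in 1 each. With only the 12 Xist-high livers 9 genes were lower, and with only the 10 Xist-low livers, among them 2 Cre MCD livers, 0. Summed hepatocyte markers were 91657 CPM in Cre and 74631 CPM in liver-Flcn-/- MCD mice (2 of 7 markers lower and 0 higher), and stellate cell and fibroblast markers 241 and 127 CPM (5 of 7 lower). Skeletal muscle markers were 372 and 7.64 CPM (6 of 6 lower), with Cre MCD mouse 3 holding most of the first sum, macrophage markers 442 and 339 CPM (1 of 7 higher and 2 lower), endothelial markers 131 and 158 CPM (1 of 5 higher) and cholangiocyte markers 141 and 119 CPM (1 of 5 higher). Their part in the 8 calls was not tested.

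The response to diet was not shown to differ between genotypes for any of the 26 genes: 0 passed the interaction test of edgeR, and limma-voom and DESeq2 called 0 each, where edgeR called 3.29% of all genes with a positive and 5.54% with a negative interaction. The median interaction was -0.13 against 0.03 for all genes. Scap alone had an unadjusted p under 0.05, with a response 0.33 ± 0.13 less negative in liver-Flcn-/- mice (edgeR adjusted p = 0.115). Without Cre MCD mouse 3, Mvk passed.

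Related genes outside the 26 were read from lists in the same fit. Of all genes tested, 28.2% fell and 29.3% rose on MCD in Cre mice, and 22.5% each way in liver-Flcn-/- mice, with medians of 0.01 and 0.00435. Of 15 genes of SREBP1 and lipogenesis, 13 fell and 1 rose on MCD in Cre mice and 12 fell and 0 rose in liver-Flcn-/- mice, with medians of -1.70 and -1.77. Scd1, the stearoyl-CoA desaturase, went from 12919 ± 5965 to 151 ± 185 CPM in Cre mice (-6.42 ± 0.80, edgeR adjusted p = 8.62e-07), and Acss2, the cytosolic acetyl-CoA synthetase, from 709 ± 250 to 50.9 ± 10.0 CPM (-3.80 ± 0.27, adjusted p = 2.93e-10). None of the 15 passed between genotypes on either diet. Of 6 further genes that SREBP2 is known to raise, 4 fell and 2 rose on MCD in each genotype (medians -1.08 and -0.80): Cyb5r3 (-1.34 ± 0.098 in Cre mice), Rdh11 (-1.91 ± 0.21) and Slc25a1 (-0.82 ± 0.12) were lower, while Tmem97, a sterol-binding membrane protein, rose in Cre mice (0.90 ± 0.13, edgeR adjusted p = 7.19e-06). Between genotypes on MCD, 1 of the 6 was lower (Cyb5r3, -0.31) and 1 higher (Aacs, 0.88), against 8.53% and 8.06% of all genes.

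Genes that consume or move cholesterol followed no single direction. Their counts stand beside 28.2% of all genes lower and 29.3% higher on MCD in Cre mice, and 22.5% each way in liver-Flcn-/- mice. Of 8 tested genes of bile acid and oxysterol synthesis, 6 fell and 1 rose on MCD in Cre mice and 5 fell and 1 rose in liver-Flcn-/- mice (medians -1.39 and -1.01). Cyp27a1, the sterol side-chain hydroxylase, went from 684 ± 59.4 to 148 ± 16.9 CPM in Cre mice (-2.21 ± 0.14, edgeR adjusted p = 6.17e-11). Cyp39a1, an oxysterol hydroxylase, rose in liver-Flcn-/- mice (2.30 ± 0.34, edgeR adjusted p = 1.13e-05). In Cre mice Cyp39a1 went from 39.0 ± 17.0 CPM on chow to 98.3 ± 23.8 CPM on MCD. Among 8 genes of LXR and sterol efflux, 1 rose and 3 fell in Cre mice, with 2 up and 2 down in liver-Flcn-/- mice (medians -0.15 and 0.03), and the efflux transporter gene Abcg1 rose in Cre mice (0.96 ± 0.15). Lpcat3, a phospholipid-remodelling target of LXR, was the gene of that list whose diet response differed between genotypes (0.48 ± 0.12, edgeR adjusted p = 0.0190), with 106 ± 8.86 CPM in Cre and 154 ± 10.7 CPM in liver-Flcn-/- MCD mice. In sterol ester storage (5 genes), 2 rose and 1 fell in each genotype (medians 0.18 and 0.32), and Lcat, which esterifies cholesterol in plasma lipoproteins, fell by 1.08 and 0.89 on the log2 scale.

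Of 10 genes of sterol uptake and transport, 3 rose and 1 fell on MCD in Cre mice, with 3 up and 2 down in liver-Flcn-/- mice (medians 0.09 and 0.07). All genes stood at 29.3% higher and 28.2% lower in Cre mice, and at 22.5% each way in liver-Flcn-/- mice. Of 8 genes of SREBP processing and sterol-regulated degradation, 1 rose and 3 fell in Cre mice, with 1 up and 2 down in liver-Flcn-/- mice (median -0.06 in Cre mice), and Erlin2, which helps degrade sterol-regulated proteins, fell in both (-0.61 ± 0.096 and -0.52 ± 0.095). Of 12 genes of the isoprenoid branches that leave the pathway at farnesyl diphosphate, 4 rose and 4 fell in Cre mice, near the shares of all genes. In liver-Flcn-/- mice 4 rose and 1 fell (medians 0.03 in Cre and 0.09 in liver-Flcn-/- mice). Dhdds, for dolichol, rose in both (0.57 ± 0.086 and 0.32 ± 0.086).

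Feeding state and time of day are known to move this pathway, so their marker genes are given beside it. Their counts stand beside 29.3% of all genes higher and 28.2% lower on MCD in Cre mice, and 22.5% each way in liver-Flcn-/- mice. Of 9 genes of the fed and fasted state, 3 rose and 3 fell on MCD in Cre mice, with 4 up and 2 down in liver-Flcn-/- mice (medians 0.28 and 0.46), and Fgf21, a fasting hormone of the liver, rose (4.33 ± 0.50 in Cre mice). Between genotypes on MCD, 1 rose (Ppargc1a, 1.10) and 2 fell (Fgf21, -1.59, and Pck1, -0.85), against 8.06% and 8.53% of all genes. Of 15 clock genes, 2 rose (Per1 and Ciart) and 3 fell in Cre mice, with 2 up and 2 down in liver-Flcn-/- mice (medians -0.07 and 0.11). Between genotypes 0 clock genes passed on either diet by edgeR, but their median was -0.51 on chow and -0.21 on MCD. All genes had medians of -0.03 and -0.01 in these comparisons. Their part in the values of the 26 genes was not tested.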

How the data were processed

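Per the labels and the study's methods, the authors made mRNA libraries from total liver RNA (the adapters hold molecular identifiers), read them single-end, and used Trimmomatic for trimming, STAR for alignment to GRCm38 and HTSeq for counting reads per gene. They deposited these counts as whole numbers without normalization. The annotation release, the strand setting and any collapsing of reads by identifier are not given in the sources used here, and the values were taken as counts of reads. All 22 columns of the table matched a sample label, and 0 had none. The labels number the mice of each group, and no 2 libraries of a group were identical.

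Genes whose mean count reached 10 were fitted in R 4.3.3 with edgeR 4.0.16 (TMM factors, 1 fit of the 4 groups, two-sided quasi-likelihood test, Benjamini-Hochberg adjustment over 14062 genes). The standard error is the log2 fold change divided by the square root of its F statistic. Flcn was also compared by a two-sided exact permutation test on log2 CPM (prior count 2; scipy 1.17.1), which doubles the smaller tail. The fit was tested on simulated data. CPM per kb used the merged exons of GENCODE M21 on GRCm38. Depth of 13751347 to 21144388 counts per library set the counting precision, and the standard errors include the spread between mice.

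All 26 genes are named. From each list of related genes, names were taken among the 4 lowest adjusted p-values that passed. The 26 genes and all lists were chosen with earlier results of these data known. Values of some genes of the pathway are not reported here. Alternatives were RLE factors, no filter, at least 10 counts in every library, sex read from Xist (12 high, 10 low) as a covariate, the replicate number as a block, leaving out the 5 chow libraries of low uniquely mapped share, fitting only the 2 groups compared, limma-voom (limma 3.58.1), DESeq2 1.42.0 and leaving out each mouse. Chosen after seeing the data were fits of only Xist-high or only Xist-low libraries and scaling to library totals.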

Additional observations from a re-analysis of the deposited data

Results flagged for a closer look

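Across 104 groups (26 genes in 4 groups), Dixon's test at 95% marked 6 in which 1 liver lay apart from the rest of its group, where chance alone marks about 5%. Idi1 stood low in liver-Flcn-/- chow mouse 1 at 16.4 CPM. Hsd17b7 stood high in Cre MCD mouse 5 at 78.2 CPM, the liver with the highest level of its group for 13 of the 20 enzymes. Ebp was high in Cre MCD mouse 4 at 115 CPM and Dhcr7 in Cre chow mouse 1 at 247 CPM. Scap was high in Cre chow mouse 4 at 225 CPM, and Stard4 in Cre chow mouse 6 at 212 CPM, although that liver had the lowest level of its group for 10 of the 20 enzymes.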

How the results depend on the processing

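Scaling to library totals alone moved the median of all genes to 0.43 for MCD in Cre mice, 0.27 for MCD in liver-Flcn-/- mice and 0.12 for genotype on chow, and with it the median of the 26 genes for MCD in Cre mice to -0.74. Under it Srebf2 turned to 0.15 in Cre mice (edgeR adjusted p = 0.28), and on MCD 2 genes were higher for Cre and 1 for liver-Flcn-/- mice, with 18 lower in each (Lbr, Sqle and Srebf2 lost for Cre and Mvk, Lss, Hsd17b7, Srebf2 and Insig2 for liver-Flcn-/- mice). The single gene higher on MCD in Cre mice, Mylip, was lost (0 genes) with only Xist-high livers, with only Xist-low livers and without the 5 chow livers of low mapping share. It ranged from 0 to 1 genes over the fits that left out each mouse. Genes lower on MCD ranged from 20 to 22 in Cre mice and from 21 to 23 in liver-Flcn-/- mice over these fits, and were 17 and 16 with only Xist-low livers. For genotype on chow, where 0 genes passed, sex as a covariate gave 2, the replicate block 1, the fit of the 2 groups 1, DESeq2 3, and leaving out each mouse 0 to 3. Of all genes, sex as a covariate gave 473 lower, the replicate block 247, the fit of the 2 groups 315 and DESeq2 596. For genotype on MCD, where 8 passed, only Xist-low livers gave 0, DESeq2 10, the fit of the 2 groups 6, and leaving out each mouse 3 to 11. Of all genes, 397 were lower with only Xist-low livers, 1360 by DESeq2 and 1038 in the fit of the 2 groups. For the interaction, where 0 passed, leaving out each mouse gave 0 to 1 genes of negative sign. Except where named, the cause was not tested.

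Replicate numbers showed no clear pairing of the mice. After group means were removed, same-numbered mice had mean correlations of -0.0842 and -0.0112 for MCD in Cre and in liver-Flcn-/- mice. For genotype the means were 0.0614 on chow and 0.129 on MCD. In each comparison at most 1 of 5 pairs correlated best with its own number. Single pairs ran from -0.551 to 0.470 for genotype on chow, and 5 pairs per comparison cannot exclude a pairing. With the replicate number as a block, 7 genes were lower for genotype on MCD, of which 6 were shared with the 8 (Msmo1 and Mvd were lost and Nsdhl was gained). With this block Srebf2 was no longer called for MCD in either genotype nor Lss in liver-Flcn-/- mice. The lowest count of these genes in any library was 64 reads, and the part of depth in the results was not tested.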
